A study of Mus musculus with 12 samples.

Results

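The normal passage from long-term haematopoietic stem cells (LT-HSC) to multipotent progenitors (MPP) was examined by ATAC-seq in 6 of the 12 libraries of the series, 3 of WT LT-HSC against 3 of WT MPP, over all 188262 accessible regions of the deposited table. The libraries were chosen by their labels, not by measured values. ATAC-seq uses the Tn5 transposase, which cuts and tags DNA where chromatin is open, so a read count over a region measures its accessibility. Both populations came from mice of genotype Phf6f/Y Rosa26+/+, which carry a floxed Phf6 allele and no Cre, and were taken 8 weeks after tamoxifen. The other 6 libraries hold the same populations from Phf6-/Y Rosa26+/Cre-ERT2 mice and enter 1 comparison below. The labels describe 20000 sorted LT-HSC from individual mice. The preparation and sorting gates of the MPP, the age of the mice, and whether LT-HSC and MPP libraries of the same number share an animal are details that the labels do not give. P-values therefore measure the spread between these samples, which may in part be technical.

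LT-HSC sit at the top of the blood hierarchy, divide rarely and can rebuild all blood lineages for the life of the animal. MPP arise from them, keep the capacity for many lineages but lose durable self-renewal, divide more and begin to express lymphoid and myeloid genes at a low level. The switch is accompanied by loss of stem cell transcription factors such as Hlf, Mecom and Prdm16 and by the appearance of the receptor Flt3 in part of the MPP.

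Promoters of a granulocyte enzyme and of a stem cell receptor illustrate opposite directions of change, and the sequences of the 2 most raised and the 2 most lowered promoters among those of 45 chosen loci with a listed start are shown for that reason. They are the 250 bases before the RefSeq start site (GRCm38.p6), 5′ to 3′ on the gene's strand, with capitals for the letters of the 9 motifs searched on both strands (described with the promoter counts further on).
Mpo (chr11:87793534-87793783, plus strand): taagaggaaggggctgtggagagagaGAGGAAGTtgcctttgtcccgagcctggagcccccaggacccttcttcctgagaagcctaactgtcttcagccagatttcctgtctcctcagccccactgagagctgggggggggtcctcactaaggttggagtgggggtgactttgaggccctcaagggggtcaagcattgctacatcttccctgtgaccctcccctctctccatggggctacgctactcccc
Elane (chr10:79886062-79886311, plus strand): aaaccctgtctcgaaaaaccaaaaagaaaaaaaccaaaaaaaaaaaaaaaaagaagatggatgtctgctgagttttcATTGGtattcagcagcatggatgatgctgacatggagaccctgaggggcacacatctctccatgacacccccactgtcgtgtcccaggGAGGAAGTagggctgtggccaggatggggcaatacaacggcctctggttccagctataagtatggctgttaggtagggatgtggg
Tek (chr4:94739039-94739288, plus strand): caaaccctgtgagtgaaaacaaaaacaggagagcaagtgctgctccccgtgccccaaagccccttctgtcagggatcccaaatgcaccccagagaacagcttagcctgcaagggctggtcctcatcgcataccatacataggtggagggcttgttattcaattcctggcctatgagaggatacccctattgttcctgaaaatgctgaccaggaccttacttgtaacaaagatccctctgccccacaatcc
Prdm16 (chr4:154636874-154637123, minus strand): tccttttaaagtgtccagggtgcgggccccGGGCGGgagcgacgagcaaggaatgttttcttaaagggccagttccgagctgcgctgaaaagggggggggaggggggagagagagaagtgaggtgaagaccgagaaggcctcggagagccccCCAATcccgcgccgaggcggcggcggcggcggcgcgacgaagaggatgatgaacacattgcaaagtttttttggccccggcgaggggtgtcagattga
Mpo and Elane, which encode the neutrophil granule enzymes myeloperoxidase and neutrophil elastase, each held the letters GAGGAAGT, a core recognised by PU.1. Elane also held the NF-Y letters CCAAT on the opposite strand. Prdm16, a zinc finger transcription factor of stem cells, held CCAAT and the SP/KLF letters GGGCGG, and Tek, the receptor for angiopoietin 1, held none of the letters searched. The Prdm16 stretch held 22 CpG dinucleotides, against 2 at Mpo, 3 at Elane and 2 at Tek. Accessibility of the region overlapping each promoter changed by a log2 fold change, MPP over LT-HSC, of 2.67 ± 0.13 (SE) at Mpo and 1.74 ± 0.21 at Elane, and of -1.98 ± 0.16 at Tek and -1.73 ± 0.12 at Prdm16. Of the 300 bases from 250 before to 50 after the start, the region covered 256 at Mpo, 300 at Elane and Prdm16, but only 105 at Tek. Most of the Tek stretch shown therefore lies outside the region measured. At Prdm16 the most accessible gene-end region, next to the one over the promoter, had a smaller log2 fold change of -0.67. It did not pass edgeR's test against a 1.5-fold change (adjusted p = 0.133).

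The 6 libraries held 28842890 to 48547234 counts each, with median counts per region of 51 to 81. Replicates correlated at r = 0.974 to 0.982 on log2 CPM (counts scaled to a common library total) across regions, and libraries of different populations at 0.772 to 0.799. The first principal component carried 86.6% of the variance and separated the populations. The second carried 4.31% and set library 3 of both populations (-0.17 and -0.19) apart from the other 4 (0.08 to 0.11). Without LT-HSC library 3 the test described below called 60555 regions higher and 61741 lower, and without MPP library 3 it called 62613 and 61586. The marker loci Flt3 and Mecom followed the labels: of 21 tested regions at Flt3, 18 were higher and 0 lower in MPP, and of 102 at Mecom, 5 were higher and 79 lower. Not all listed genes did. Among 20 genes of progenitor growth, 14 had more higher and 5 more lower regions. Among 24 LT-HSC transcription factors these were 4 and 19.

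Accessibility changed at most of the tested regions, relative to the centre of all regions. Of 185359 regions tested, 126418 (68.2%) passed edgeR's quasi-likelihood test at a Benjamini-Hochberg adjusted p of 0.05, called below. Higher in MPP were 62565 (33.8% of those tested), and 63853 (34.4%) were lower. Changes of at least 2-fold were called at 33085 regions higher (17.8%) and 34467 lower (18.6%), at least 4-fold at 10290 and 10750, and at least 8-fold at 2404 and 2760. The libraries of the 2 populations did not overlap at 130814 regions (70.6%). Called changes under 1.5-fold numbered 25363 (20.1% of the calls), and the smallest called log2 fold change was 0.13 in size. Tested against a 1.5-fold change rather than no change, 35754 regions were higher and 38472 lower. The scaling places the median log2 fold change near 0 (0.01), so the near-equal split of higher and lower calls follows from it in part, and an overall gain or loss of accessibility could not be measured. In bulk samples a difference in the share of cells that hold a region open and a difference in accessibility per cell cannot be told apart.

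**Figure D1:**
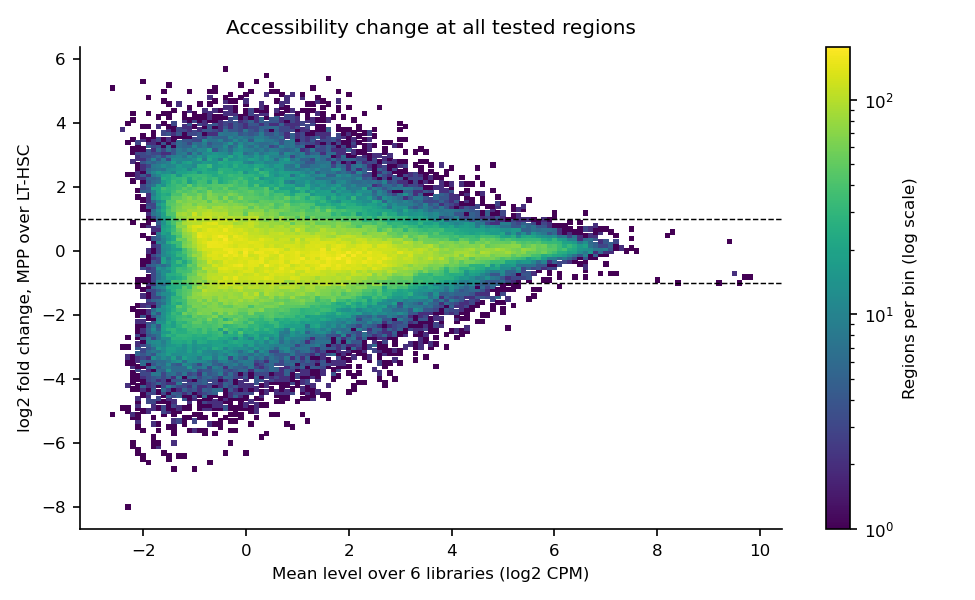
Each square is a bin of tested regions, placed by mean level over the 6 WT libraries (log2 CPM) and by log2 fold change of MPP over LT-HSC, and coloured by the number of regions on a log scale. Dashed lines mark 2-fold changes, which 17.8% of regions exceeded as higher calls and 18.6% as lower calls.

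Where a region lay went with the size of its change. Regions at gene ends, no more than 1 kb from where a protein-coding gene begins or stops, were called about as often as others (65.6% of 24435), but 6.77% were at least 2-fold higher and 12.3% at least 2-fold lower. Gene bodies gave 18.2% and 19.8%, and intergenic regions 21.1% and 19.2%. The median size of change was 0.41 on the log2 scale at gene ends, 0.74 in gene bodies and 0.79 between genes. Within 1 kb of a listed start site it was 0.35, and there 632 regions were at least 2-fold higher and 1823 lower. Regions over 100 kb from any protein-coding gene were more often lower (42.1%) than higher (29.8%), as were regions of 1000 bp or more in length (52.3% lower, 18.4% higher). In the most accessible of 5 equal groups of regions 5.89% were at least 2-fold higher and 6.36% lower, and in the least accessible 29.8% and 28%.

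Many genes held regions of both directions. Of 18519 genes with a tested region, 10185 did, 3778 had only higher calls, 3075 only lower calls and 1481 none. Of 5680 genes with 10 or more tested regions 5335 did. Neighbouring called regions less than 2 kb apart shared their direction in 71.6% of pairs, those 2 to 10 kb apart in 60.5%, those 10 to 50 kb apart in 59.4% and those further apart in 62.6%, where the overall split gives 50%. Among genes with 10 or more regions, 76 had at least 80% called higher and 142 at least 80% called lower. The following genes from these groups were picked after their values were seen. All tested regions were lower at Nlgn1 (15 regions, median log2 fold change -2.78), a synaptic adhesion gene, at Nkx2-1 (14, -1.11), a transcription factor of lung and thyroid, and at Sema3a (11, -1.53), an axon guidance factor. At Txndc16 (13 regions, median 1.82) and Nlrp3 (10, 2.46), the inflammasome sensor, all were higher. Of 12 regions at Ccl6, a chemokine gene, 11 were higher and 0 lower, and of 12 at Selplg, the selectin ligand of leukocytes, again 11 and 0.

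Transcription factors of LT-HSC lost accessibility at many regions. Of 1039 tested regions at 24 such genes, 572 (55.1%) were lower and 200 (19.2%) higher in MPP, against 34.4% and 33.8% of all regions tested, and the median log2 fold change was -0.53 against 0.01. Mecom, which encodes the zinc finger factor EVI1, had 79 lower and 5 higher of 102 regions. Prdm16 had 55 lower and 3 higher of 67. Mllt3, a regulator of stem cell maintenance, had 52 lower and 6 higher of 71. Counts were more even at Erg (22 lower, 30 higher of 74) and Runx1 (21 lower, 40 higher of 113), which encode an ETS factor and a core binding factor.

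Mllt3 held 20.1, 20 and 21.4 CPM in LT-HSC and 1.86, 2.42 and 2.54 CPM in MPP at chr4:87823222-87823957 in its gene body (-3.18 ± 0.12, adjusted p = 2.46e-15). Tcf15, a factor of quiescent stem cells, fell at an intergenic region 5915 bp from the gene (chr2:152155012-152156227), from 37.7, 38 and 37.5 CPM to 6.16, 7.44 and 7.25 CPM. This was a log2 fold change of -2.44 ± 0.09. No MPP library reached the level of any LT-HSC library in these regions.

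Prdm16 fell at chr4:154359717-154360188 in the gene body. The LT-HSC libraries held 3.85, 3.94 and 3.32 CPM and the MPP libraries 0.229, 0.148 and 0.137 CPM (-4.39 ± 0.25, adjusted p = 1.05e-12). Hlf, a PAR bZIP factor of stem cells, fell in its gene body at chr11:90381997-90382703 from 17.6, 16.7 and 17.1 CPM to 3.41, 3.56 and 3.78 CPM (-2.26 ± 0.10). Its gene end moved little, from 20.5 ± 1.77 to 23.4 ± 1.75 CPM (0.19 ± 0.09, adjusted p = 0.0487), a call lost under DESeq2 (adjusted p = 0.0749) and without LT-HSC library 1 or 3 or MPP library 1 (0.208, 0.124 and 0.212). With edgeR this call was also lost under RLE (0.0503), total-count (0.0872) and loess (0.125) scaling and against a 1.5-fold change. Gata2, a zinc finger factor of stem and progenitor cells, had a gene end with 19.6 ± 1.16 and 19.7 ± 1.83 CPM (log2 fold change 0.01 ± 0.09, adjusted p = 0.897). A region inside Gata2, chr6:88203003-88203461, fell from 40.7 ± 1.89 to 23 ± 1.46 CPM (-0.83 ± 0.07).

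Regions that rose stood beside those that fell within the same factor genes. Runx1 rose at chr16:92715470-92716392 in its gene body from 3.93, 4.11 and 5.12 CPM to 31.7, 28.1 and 33 CPM (2.82 ± 0.11, adjusted p = 3.33e-15). In Erg a region at chr16:95464493-95465023 rose from 1.37 ± 0.181 to 6.44 ± 0.485 CPM (2.24 ± 0.15). Another in the same gene, chr16:95452381-95452862, fell from 30 ± 1.71 to 13.4 ± 1.19 CPM (-1.16 ± 0.09). Gfi1b, a transcriptional repressor that acts in stem cells and the megakaryocyte and erythroid lineages, fell 6834 bp from the gene (-2.32 ± 0.13) and rose inside it (2.87 ± 0.18). Meis1, a homeodomain factor, had 48 lower and 6 higher of 73 regions, and 1 of the 6 rose from 1.07 ± 0.261 to 4.16 ± 0.25 CPM (1.96 ± 0.18).

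**Figure D2:**
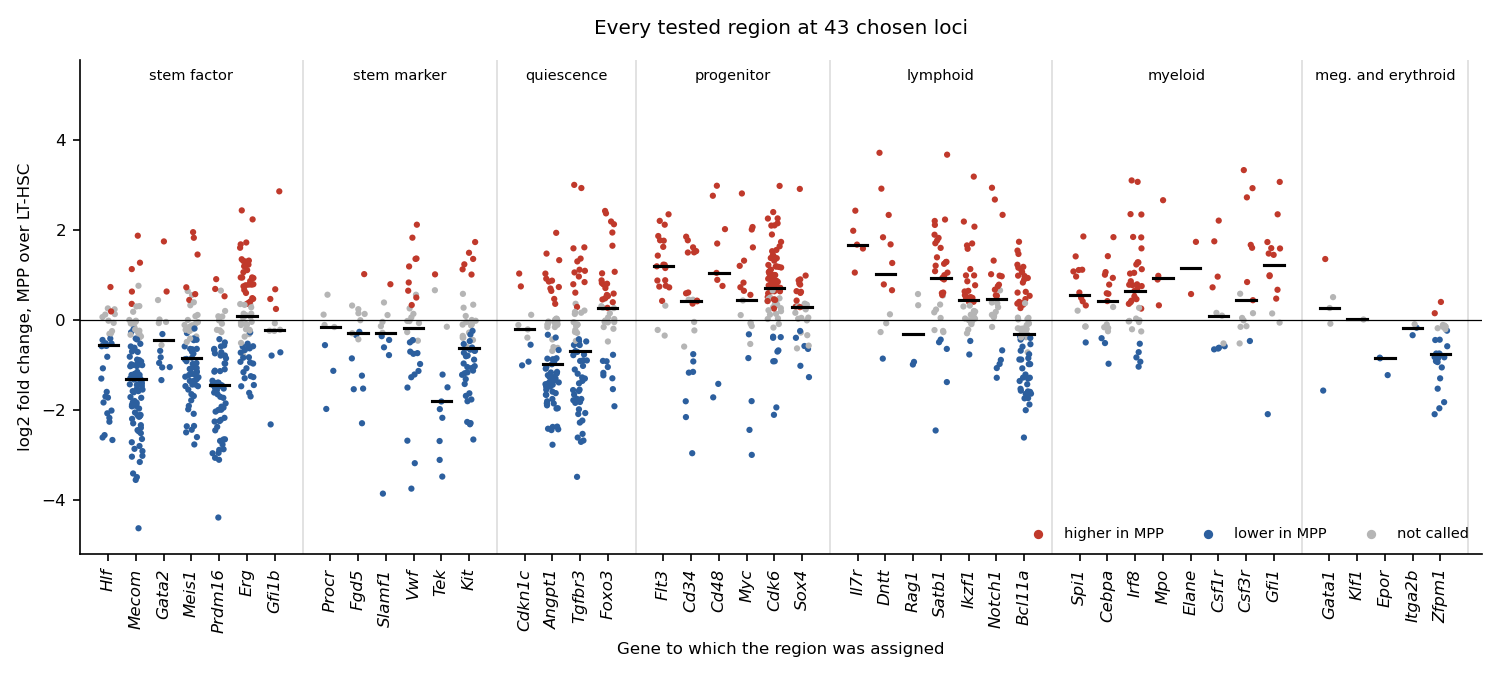
Every tested region at 43 of the chosen genes, grouped by role, is plotted by its log2 fold change of MPP over LT-HSC (vertical axis). Red points were called higher, blue points lower and grey points were not called, and black bars are medians, which are -1.30 at Mecom, 0.10 at Erg and 1.20 at Flt3.

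The Hoxa and Hoxb clusters, homeobox genes active in stem cells, had far more lower than higher regions. Of 115 tested regions assigned to 20 genes of the 2 clusters, 75 (65.2%) were lower and 5 (4.35%) higher, with a median of -0.55. Over all regions tested 34.4% were lower and 33.8% higher. All 20 genes had more lower than higher regions. The gene end of Hoxb2 (chr11:96351333-96352389) fell from 12, 10.6 and 10 CPM to 1.58, 1.53 and 1.82 CPM (-2.74 ± 0.13, adjusted p = 1.02e-13), and that of Hoxb5 (chr11:96304439-96305078) from 6.06, 6.1 and 5.41 CPM to 1.5, 1.57 and 1.72 CPM (-1.88 ± 0.14). In both the groups were well apart. The exceptions included a gene end of Hoxa3, which rose from 7.95, 7.79 and 6.94 CPM to 10.6, 10.2 and 11.1 CPM (0.49 ± 0.10).

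Surface and marker genes of LT-HSC also lost more regions than they gained. Of 384 regions at 24 genes, 172 (44.8%) were lower and 94 (24.5%) higher, against 34.4% and 33.8% of all regions tested. Slamf1, which encodes the SLAM receptor CD150, lost a region in its gene body at chr1:171773106-171773665 from 16.3, 14.7 and 17.3 CPM to 1.17, 1.12 and 0.997 CPM, a 14.5-fold difference (-3.86 ± 0.13, adjusted p = 8.36e-16). Of its 11 regions 5 were lower and 1 higher. The Slamf1 gene end changed by -0.44, a call lost against a 1.5-fold change and without MPP library 2 (adjusted p = 0.0935). The gene end of Vwf, von Willebrand factor (chr6:125552700-125553151), fell from 9.18, 9.07 and 8.82 CPM to 0.433, 0.996 and 0.481 CPM (-3.75 ± 0.19). Both genes are used as markers of stem cells, and in neither did the groups overlap. Elsewhere in Vwf a region rose from 0.939 ± 0.0808 to 4.06 ± 1.05 CPM (2.12 ± 0.20), and 13 of its 32 regions were lower and 9 higher. Whether Slamf1, Cd48, Cd34 or Flt3 products were used in the sort is not stated in the labels.

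Tek had 8 lower and 1 higher of 11 regions. The region that overlaps part of its promoter, shown by sequence above, fell from 8.07, 6.59 and 5.44 CPM to 1.63, 1.74 and 1.72 CPM. The highest MPP library stayed well under the lowest LT-HSC library. At Kit, the stem cell factor receptor present on both populations, the gene end held 39.9 ± 1.08 and 37.3 ± 1.16 CPM (-0.10 ± 0.07, adjusted p = 0.201), while 32 of 54 regions were lower and 6 higher. Procr, the endothelial protein C receptor, had an uncalled gene end too (-0.11 ± 0.11, adjusted p = 0.396), and an intergenic region 8482 bp away fell from 15.4, 15.3 and 14.9 CPM to 3.46, 3.39 and 4.92 CPM (-1.98 ± 0.12).

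Genes of quiescence and niche signalling were mixed. Of 603 regions at 22 genes, 246 (40.8%) were lower and 199 (33%) higher, against 34.4% and 33.8% of all regions tested. Angpt1, the Tek ligand, had 46 lower and 12 higher of 75 regions, and Tgfbr3, a co-receptor for TGF-beta, 39 and 14 of 66. Tgfbr2, the type II TGF-beta receptor, leaned the other way with 8 lower and 26 higher of 51. A region 2766 bp from Tgfbr2 (chr9:116178129-116178552) rose from 0.787, 0.656 and 0.853 CPM to 14.7, 14.5 and 14.5 CPM, a 19-fold difference (4.25 ± 0.14, adjusted p = 5.73e-16). Tgm2, a transglutaminase gene, held a region that rose from 2.1, 1.85 and 2.18 CPM to 31.6, 39.7 and 30.1 CPM (chr2:158133051-158133548, 4.05 ± 0.12). Another in the same gene body fell from 27.7, 30 and 27.1 CPM to 3.01, 4.13 and 4.09 CPM (chr2:158141936-158142434, -2.92 ± 0.11). Cxcr4, the receptor for the niche chemokine CXCL12, had 24 higher and 9 lower of 42 regions. Foxo3, a forkhead factor of quiescence, had 20 higher and 9 lower of 43, and its strongest gene end held 79.3 ± 0.798 and 82.7 ± 3.91 CPM (0.06 ± 0.06, adjusted p = 0.378).

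Genes of progenitor growth gained regions. Of 519 regions at 20 genes, 244 (47%) were higher and 125 (24.1%) lower, against 33.8% and 34.4% of all regions tested. Flt3, a receptor tyrosine kinase that marks lymphoid-primed MPP, had 18 higher and 0 lower of 21. Its gene end (chr5:147400187-147400598) held 35.7, 35.6 and 36.8 CPM in LT-HSC and 60.4, 61.9 and 59.1 CPM in MPP (0.75 ± 0.06, adjusted p = 1.12e-09). A region inside Flt3, chr5:147339514-147340133, went from 2.24, 2.91 and 2.23 CPM to 9.32, 9.77 and 7.87 CPM (1.87 ± 0.14). The more open of these sites changed less. Cdk6, a kinase of cell cycle entry, had 56 higher and 9 lower of 89 regions, with its gene end at 13.2 ± 2.24 and 14.6 ± 0.407 CPM (0.14 ± 0.10, adjusted p = 0.235). The Cdk6 body region chr5:3502454-3503025 rose from 3.76, 3.59 and 4 CPM to 20.9, 20.2 and 19 CPM (2.41 ± 0.10). Cd48, a SLAM family gene, had 7 higher and 2 lower of 9 regions. The region over its start (chr1:171681750-171682250) rose from 4.52, 4.19 and 3.97 CPM to 6.8, 7.52 and 7.15 CPM (0.76 ± 0.12), a call lost against a 1.5-fold change. A region nearby, still at the gene end (chr1:171681002-171681403), rose from 0.524, 0.485 and 0.559 CPM to 4.51, 4.19 and 3.78 CPM (2.99 ± 0.19), and one in the gene body fell from 4.19, 3.85 and 3.97 CPM to 1.71, 1.27 and 1.55 CPM (-1.42 ± 0.16).

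Myc, a driver of growth, had an uncalled gene end of 57.8 ± 2.16 and 55.5 ± 0.58 CPM (-0.06 ± 0.06, adjusted p = 0.429) between distal regions that moved in opposite directions. A region 56882 bp from the gene fell from 4.89, 5.45 and 5.82 CPM to 0.79, 0.699 and 0.481 CPM (-3.00 ± 0.18). A region 9137 bp away rose from 0.32, 0.257 and 0.235 CPM to 2.11, 2.27 and 1.31 CPM (2.82 ± 0.29). Groups did not overlap at either. Cd34, a sialomucin gene, rose at its gene end from 18 ± 1.37 to 27.6 ± 2.12 CPM (0.61 ± 0.08) and fell 21583 bp from the gene from 3.99 ± 0.77 to 0.505 ± 0.0395 CPM (-2.96 ± 0.21).

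Lymphoid genes had more higher than lower regions in MPP. Of 677 regions at 21 genes, 306 (45.2%) were higher and 170 (25.1%) lower, against 33.8% and 34.4% of all regions tested. All 5 regions at Il7r, the interleukin 7 receptor, were at least 2-fold higher. Its gene end (chr15:9529649-9530145) held 2.53, 2.51 and 2 CPM in LT-HSC and 6.83, 7.29 and 7.18 CPM in MPP (1.59 ± 0.13, adjusted p = 5.49e-10). Satb1, a chromatin organiser of lymphoid progenitors, rose in its gene body at chr17:51784915-51785349 from 0.32, 0.399 and 0.47 CPM to 5.25, 5.7 and 4.33 CPM (3.68 ± 0.20), and 23 of its 36 regions were higher. Dntt, the terminal transferase of V(D)J joining, had 8 higher and 1 lower of 12. The recombinase gene Rag1 differed from these: of 4 regions 2 were lower and none higher. Its gene end held 2.33 ± 0.324 and 2.95 ± 0.189 CPM (0.33 ± 0.16, adjusted p = 0.0649), and it was called higher with the 1 CPM filter, the loess offset, the replicate block and without LT-HSC library 3. At Ikzf1 (Ikaros) and Notch1 the gene ends were not called (0.12 ± 0.10, adjusted p = 0.269, and 0.07 ± 0.08, adjusted p = 0.475), while 22 of 40 and 12 of 26 of their regions were higher. Bcl11a was lower at 32 and higher at 22 of 75.

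Regions along the immunoglobulin heavy chain variable genes, the Ighv segments joined in B cell development, were more accessible in MPP over a span of megabases. Between the outermost listed Ighv entries (chr12:113572929-116009954, 183 entries) 181 of 213 tested regions were higher and 2 lower, with a median log2 fold change of 1.69, and 151 were at least 2-fold higher. Summed over the span, the LT-HSC libraries held 289, 265 and 295 CPM and the MPP libraries 769, 864 and 841 CPM. Libraries without Phf6 gave 254 to 259 CPM in LT-HSC and 689 to 723 CPM in MPP, and in neither genotype did the populations overlap. Of the 5 longest runs of consecutive higher regions, 2 lay inside the span, with 26 and 21 regions, and the longest, with 29 regions, reached past its end to chr12:116015088, where 11 regions were assigned to Zfp386. Many of these segments are near copies of each other, so reads may be split among them and single regions are uncertain. For markers of B cells, over 105 regions at 12 B cell genes the sum was 367 to 390 CPM in LT-HSC and 389 to 407 CPM in MPP, and these ranges overlapped. Of these regions 46 (43.8%) were higher and 29 (27.6%) lower, against 33.8% and 34.4% of all regions tested. Bank1 and Pax5 held 34 and 25 of the regions, with 11 and 8 higher and 12 and 11 lower. By gene, 8 of the 12 had more higher and 3 more lower regions. At their gene ends 7 of 14 regions were higher (50%) and 1 lower (7.14%), against 31.3% and 34.3% of all gene ends. The part of B cells in the result was not tested.

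Myeloid genes had the highest share of gained regions among the 18 lists. Of 281 regions at 24 genes, 172 (61.2%) were higher and 42 (14.9%) lower, against 33.8% and 34.4% of all regions tested. All 24 genes had at least 1 higher region, as did 13963 of all 18519 genes with a tested region. Ctsg, the granule protease cathepsin G, had 5 of 5 regions at least 2-fold higher, and its gene end (chr14:56102328-56102828) went from 0.612, 0.371 and 0.47 CPM to 11, 11.2 and 8.42 CPM, a 21.1-fold difference (4.40 ± 0.18, adjusted p = 1.34e-14). Mpo, at the region over the promoter shown above (chr11:87793256-87793789), rose from 2.21, 1.57 and 1.97 CPM to 12.7, 12.3 and 11.5 CPM (2.67 ± 0.13, adjusted p = 1.18e-13). Even the lowest MPP library was several-fold above the highest LT-HSC library at both. All 4 Mpo regions and both Elane regions were higher. Elane at its start (chr10:79886009-79886449) held 1.17, 1.08 and 0.941 CPM in LT-HSC and 3.36, 4.58 and 2.58 CPM in MPP.

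Among regulators and receptors of the myeloid lineage the counts varied. The gene of the M-CSF receptor, Csf1r, had 4 higher and 4 lower of 11 regions, and Csf2ra, a GM-CSF receptor subunit gene, 3 and 5 of 12. Cebpa, a bZIP factor of granulocytes and monocytes, rose at its strongest gene end (chr7:35119004-35119438) from 23.4, 27.4 and 27.6 CPM to 54.4, 54.5 and 48.9 CPM (1.01 ± 0.08, adjusted p = 1.52e-10). Gfi1, a transcriptional repressor that acts in granulocyte and lymphoid differentiation, rose at its gene end (chr5:107725241-107726188) from 12.1, 9.98 and 10.2 CPM to 28.6, 31.9 and 29.6 CPM (1.48 ± 0.09), and a region in its body fell (-2.09 ± 0.17). Spi1, which encodes PU.1, had 10 higher and 1 lower of 14 regions, and Irf8, a factor of monocytes and dendritic cells, 26 higher and 5 lower of 39. Csf3r, the G-CSF receptor, rose in its gene body from 0.35, 0.485 and 0.206 CPM to 3.64, 2.9 and 4.23 CPM (chr4:126030688-126031138, 3.34 ± 0.25). Its gene end, at 8.65 ± 1.8 and 11.7 ± 2.25 CPM (0.44 ± 0.14), was called only while LT-HSC library 3 and MPP library 2 were both kept (adjusted p = 0.0545 and 0.0655 without them).

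Megakaryocyte and erythroid genes had more lower than higher regions. Of 242 regions at 22 genes, 103 (42.6%) were lower and 64 (26.4%) higher, against 34.4% and 33.8% of all regions tested. The platelet glycoprotein gene Gp1ba fell at its gene end (chr11:70638821-70639256) from 41.7, 41.5 and 43.4 CPM to 10.6, 11.3 and 9.49 CPM (-2.00 ± 0.08, adjusted p = 9.26e-15), and Gp9 at its own (chr6:87775840-87776282) from 22.9, 23 and 22.8 CPM to 7.03, 7.88 and 7.53 CPM (-1.61 ± 0.09). Zfpm1, the GATA1 cofactor FOG1, had 19 lower and 2 higher of 27, with the steepest named fall inside the gene at chr8:122309250-122309724, from 29.1, 32.3 and 30.1 CPM to 7.31, 8.26 and 5.6 CPM (-2.09 ± 0.11). At these 3 loci all LT-HSC libraries lay above all MPP libraries. Epor, the erythropoietin receptor, had 3 of 3 regions lower, its gene end by -0.85 ± 0.09. Gata1 had 1 region higher and 1 lower of 5, and the 1 region of Klf1, an erythroid factor, was not called (log2 fold change 0.02). Itga2b, the platelet integrin CD41, had a gene end of 29.9 ± 2.73 and 28.1 ± 2.25 CPM (-0.09 ± 0.08, adjusted p = 0.339).

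**Figure D3:**
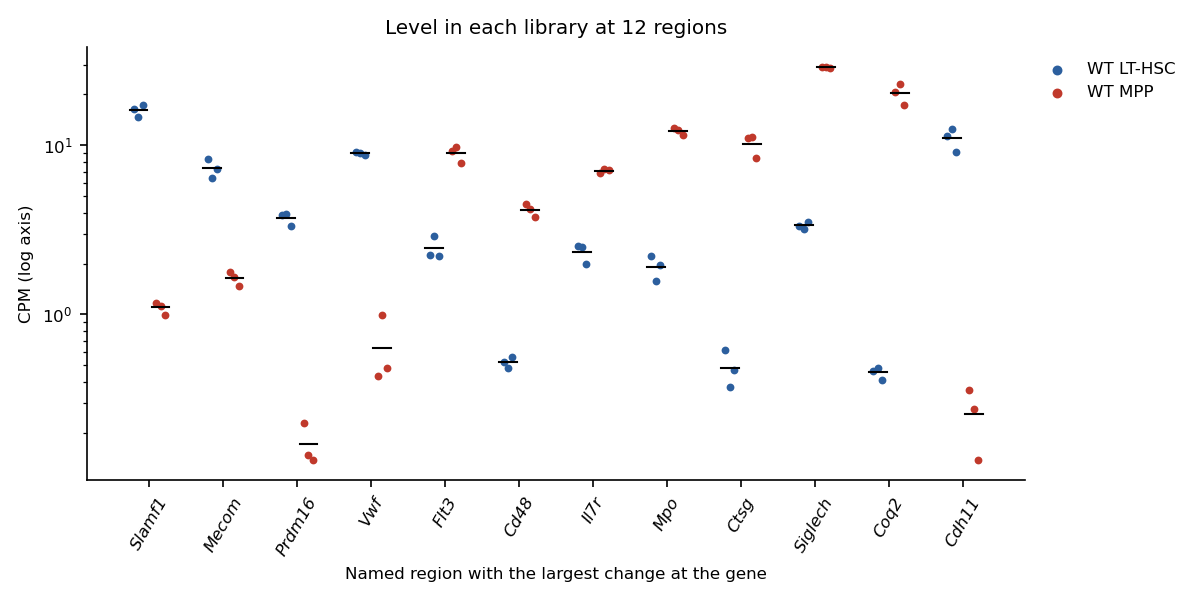
Points give the level in CPM on a log axis in each WT LT-HSC (blue) and WT MPP (red) library at 12 regions, and black bars the group means. Slamf1, Mecom, Prdm16, Vwf and Cdh11 lie lower and the other 7 higher in MPP, and in none of the 12 do the groups overlap. The regions were chosen by their values, which favours such separation. Groups did not overlap at 70.6% of all tested regions.

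Cell cycle genes had the lowest share of called regions among the 18 lists. Of 163 regions at 27 genes, 65 (39.9%) were higher and 24 (14.7%) lower, against 33.8% and 34.4% of all regions tested. The share called, 54.6%, was under the 68.2% of all regions. The single regions at Ccna2 (0.02), Ccnb1 (0.09) and Cdc20 (-0.06) were not called. Mcm5, a subunit of the replicative helicase, rose in its gene body (chr8:75119354-75120176) from 2.53, 2.05 and 2.94 CPM to 17.5, 20.4 and 15.1 CPM (2.82 ± 0.14, adjusted p = 9.73e-14). E2f1, a factor of S phase entry, rose 4312 bp from the gene (2.57 ± 0.16). For ribosome biogenesis 53 of 113 regions (46.9%) were higher and 26 (23%) lower, against the same 33.8% and 34.4%. The gene end of Gnl3, nucleostemin, went from 14.5, 15.3 and 14.3 CPM to 37.8, 37.2 and 33.4 CPM (1.30 ± 0.08).

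Immediate early and interferon genes gave other counts at gene ends than over all their regions, and the difference was not tested. At 24 immediate early genes 151 of 369 regions (40.9%) were higher and 93 (25.2%) lower, but at their gene ends 16 of 62 were higher (25.8%) and 21 lower (33.9%), against 31.3% and 34.3% of all gene ends. Interferon response genes gave 54 higher (43.9%) and 40 lower (32.5%) of 123, against 6 (17.6%) and 19 (55.9%) of 34 at gene ends, and 15 and 17 at 2-fold or more. Over all regions tested the shares were 33.8% higher and 34.4% lower. The summed level over the immediate early regions varied within groups, from 3640 to 4440 CPM in LT-HSC and from 4050 to 4500 CPM in MPP. Fosl2, an AP-1 subunit with 3 higher and 5 lower of 16 regions, rose 13699 bp from the gene (chr5:32121950-32122773) from 0.845, 1.11 and 1.35 CPM to 11.8, 12.6 and 11.7 CPM (3.44 ± 0.14). Of the interferon response genes, 12 had more higher and 8 more lower regions. Ifit2, an interferon-induced gene with 4 lower and 1 higher of 5 regions, fell at 1 region. This went from 6.41, 5.42 and 6.03 CPM to 1.2, 1.31 and 0.962 CPM (-2.33 ± 0.16). Single regions rose at Bst2 (2.80), Ifitm3 (2.14) and Ly6e (1.89).

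Markers of mature cells that a sort could carry along differed between the populations to differing degrees. Macrophage and dendritic cell genes summed to 374 to 384 CPM in LT-HSC and 555 to 561 CPM in MPP over 140 regions, of which 67 (47.9%) were higher and 35 (25%) lower. That list includes Flt3, the MPP marker above, with 18 higher and 0 lower of 21 regions. The list that follows includes Gata2, a stem cell factor above, with 2 higher and 7 lower of 14. Mast cell, basophil and eosinophil genes summed to 298 to 313 and 346 to 361 CPM over 83 regions (53% higher, 22.9% lower), T cell genes to 701 to 743 and 757 to 787 CPM over 204 (40.7% higher, 32.4% lower), and NK cell genes to 331 to 359 and 340 to 373 CPM over 75 (42.7% higher, 33.3% lower), against 33.8% and 34.4% of all regions. The NK cell sums of the populations overlapped. Endothelial and stromal genes went down, from 812 to 847 CPM to 705 to 724 CPM over 227 regions (28.6% higher, 44.9% lower). The part of such cells in the results was not tested. Siglech, a receptor of plasmacytoid dendritic cells, gained a region 5055 bp away (chr7:55784503-55784954), from 3.35, 3.22 and 3.5 CPM to 29, 29.2 and 28.6 CPM (3.11 ± 0.10, adjusted p = 3.72e-16). Hdc, the histamine-forming enzyme of basophils and mast cells, rose in its gene body from 1.49, 1.65 and 1.5 CPM to 18.4, 19 and 15.3 CPM (3.51 ± 0.13). Mertk, a phagocytosis receptor gene of macrophages, leaned the other way, with 12 lower and 3 higher of 21 regions. One of these fell from 7.34, 6.87 and 7.06 CPM to 1.76, 1.59 and 1.62 CPM (-2.10 ± 0.13). Single regions fell at Mrc1 (-2.70 ± 0.25), the macrophage mannose receptor gene, at Siglec1 (-1.23 ± 0.11), and at the mast cell genes Ms4a2 (-2.24 ± 0.20) and Cma1 (-1.93 ± 0.14). As whole loci these did not lean lower. Higher and lower regions numbered 8 and 5 of 20 at Mrc1 and 3 and 3 of 8 at Siglec1. At Ms4a2 they numbered 3 and 2 of 7, and at Cma1 4 and 4 of 9. Gata3, a factor of T cells that is also active in stem cells, had 18 lower and 2 higher of 28 regions.

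**Figure D4:**
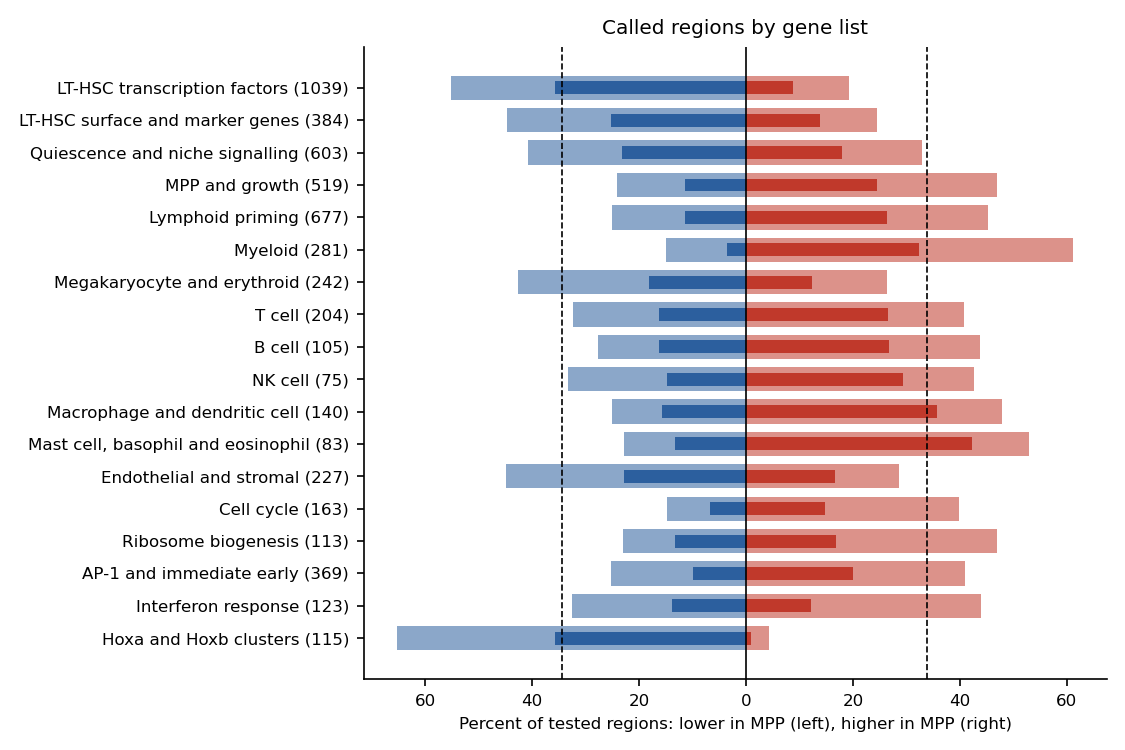
Bars give, for each of 18 gene lists (number of tested regions in brackets), the percent of regions called lower (left, blue) and higher (right, red) in MPP, with darker inner bars for changes of at least 2-fold and dashed lines for all tested regions (34.4% lower and 33.8% higher). Myeloid genes reached 61.2% higher, and the Hoxa and Hoxb clusters 65.2% lower.

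The largest changes at regions above the median level lay mostly at genes outside the lists. The lists hold only a small part of all tested regions, so most regions lie outside them in any case. Coq2, an enzyme of ubiquinone synthesis, rose in its gene body (chr5:100656333-100656782) from 0.466, 0.485 and 0.412 CPM to 20.6, 23.2 and 17.4 CPM, a 44.7-fold difference (5.48 ± 0.16, adjusted p = 2.51e-16). Other large rises were at Ccdc93 (5.04 ± 0.15), Mgat4a (4.98 ± 0.17), Ttc39b (4.98 ± 0.20), Zfp536 (4.92 ± 0.23) and Osbpl3 (4.89 ± 0.38). Mgat4a encodes a glycosyltransferase. Osbpl3 spread most among MPP libraries, at 11, 15.2 and 4.5 CPM against 0.583, 0.171 and 0.294 CPM in LT-HSC. Themis2, a signalling adaptor of B cells and macrophages, rose from 0.408, 0.371 and 0.382 CPM to 11.4, 13.2 and 9.21 CPM (4.86 ± 0.19), and Hdac4, a histone deacetylase gene, 29552 bp away by 4.80 ± 0.16.

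Among the steepest losses, Stard4, a sterol transfer protein gene, fell at chr18:33292789-33293246, 78927 bp from the gene, from 10.4, 11.8 and 14.4 CPM to 0.357, 0.254 and 0.206 CPM (-5.44 ± 0.20, adjusted p = 1.95e-15). Cdh11, a cadherin gene, fell in its gene body (chr8:102667133-102667592) from 11.3, 12.5 and 9.12 CPM to 0.357, 0.275 and 0.137 CPM, 40.6-fold (-5.34 ± 0.21). Both regions were close to empty in all MPP libraries. Fstl5, a follistatin-like gene, changed by -5.08 ± 0.17. Tnfsf11, the RANK ligand gene, fell 89206 bp away (-4.68 ± 0.18), and Trpm3, an ion channel gene, 2821 bp away (-4.52 ± 0.16). Sprr2a1 (-4.49 ± 0.21) and Sprr2a2 (-4.43 ± 0.21) are near-identical copies whose reads may be split between them, so their values are uncertain.

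The loci with the most changed regions were large genes that moved both ways. Foxp1, a forkhead gene of lymphoid and stem cells, had 62 higher and 44 lower of 159 regions, and Pde4d, a phosphodiesterase gene, 54 and 56 of 166. Gse1 had 39 higher and 64 lower of 141, Wwox 56 and 34 of 122, and Maml3, a Notch coactivator, 47 and 21 of 97. More uneven were Msi2, an RNA-binding regulator of stem cells, with 17 higher and 63 lower of 113, and Rora, a nuclear receptor, with 22 and 56 of 108. In Foxp1 a region at chr6:98975764-98976417 fell from 7.02, 7.9 and 8.06 CPM to 0.662, 0.742 and 0.825 CPM (-3.37 ± 0.16).

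Long runs of neighbouring regions changed together at some loci. With neighbours at most 50 kb apart, 113 runs of 10 or more consecutive tested regions were all higher and 134 all lower. The longest, 67 regions all lower over 179 kb (chr6:114458193-114636876), had 38 regions assigned to Hrh1, a histamine receptor gene, and 29 to Atg7, an autophagy gene, by overlap or as the nearest gene. Only 1 gene entry, Hrh1, overlapped the run. The log2 fold changes in the run lay between -1.81 and -0.69 (median -1.33). The summed level was 367, 366 and 390 CPM in LT-HSC and 131, 136 and 164 CPM in MPP. Spacing was regular: 35 of 66 gaps between midpoints measured 2300 to 2600 bp, a size found in 2.91% of all neighbour gaps, and the median gap was 2401 bp against 4824 bp overall. Whether these regions share sequence, so that reads could be split among copies, was not tested. In libraries without Phf6 the run held 354 to 373 CPM in LT-HSC and 137 to 146 CPM in MPP.

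Other lower runs lay at Prdm16 (23 regions, median -1.73), Vac14 (21, -1.42), Shroom3 (20, -1.70) and Speg with Des (19, -1.19). Des encodes the muscle filament desmin and Shroom3 an actin-binding protein. At the Prdm16 run the sum fell from 126, 127 and 120 CPM to 45.9, 45.7 and 47.8 CPM. Outside the Ighv span, the longest higher runs lay at Kctd12 and Acod1 (24 regions, median 1.67) and at Txndc16 and Ptger2 (23, 1.52). Acod1 makes itaconate in macrophages and Ptger2 is a prostaglandin receptor. The former run went from 149, 147 and 152 CPM to 271, 282 and 259 CPM.

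**Figure D5:**
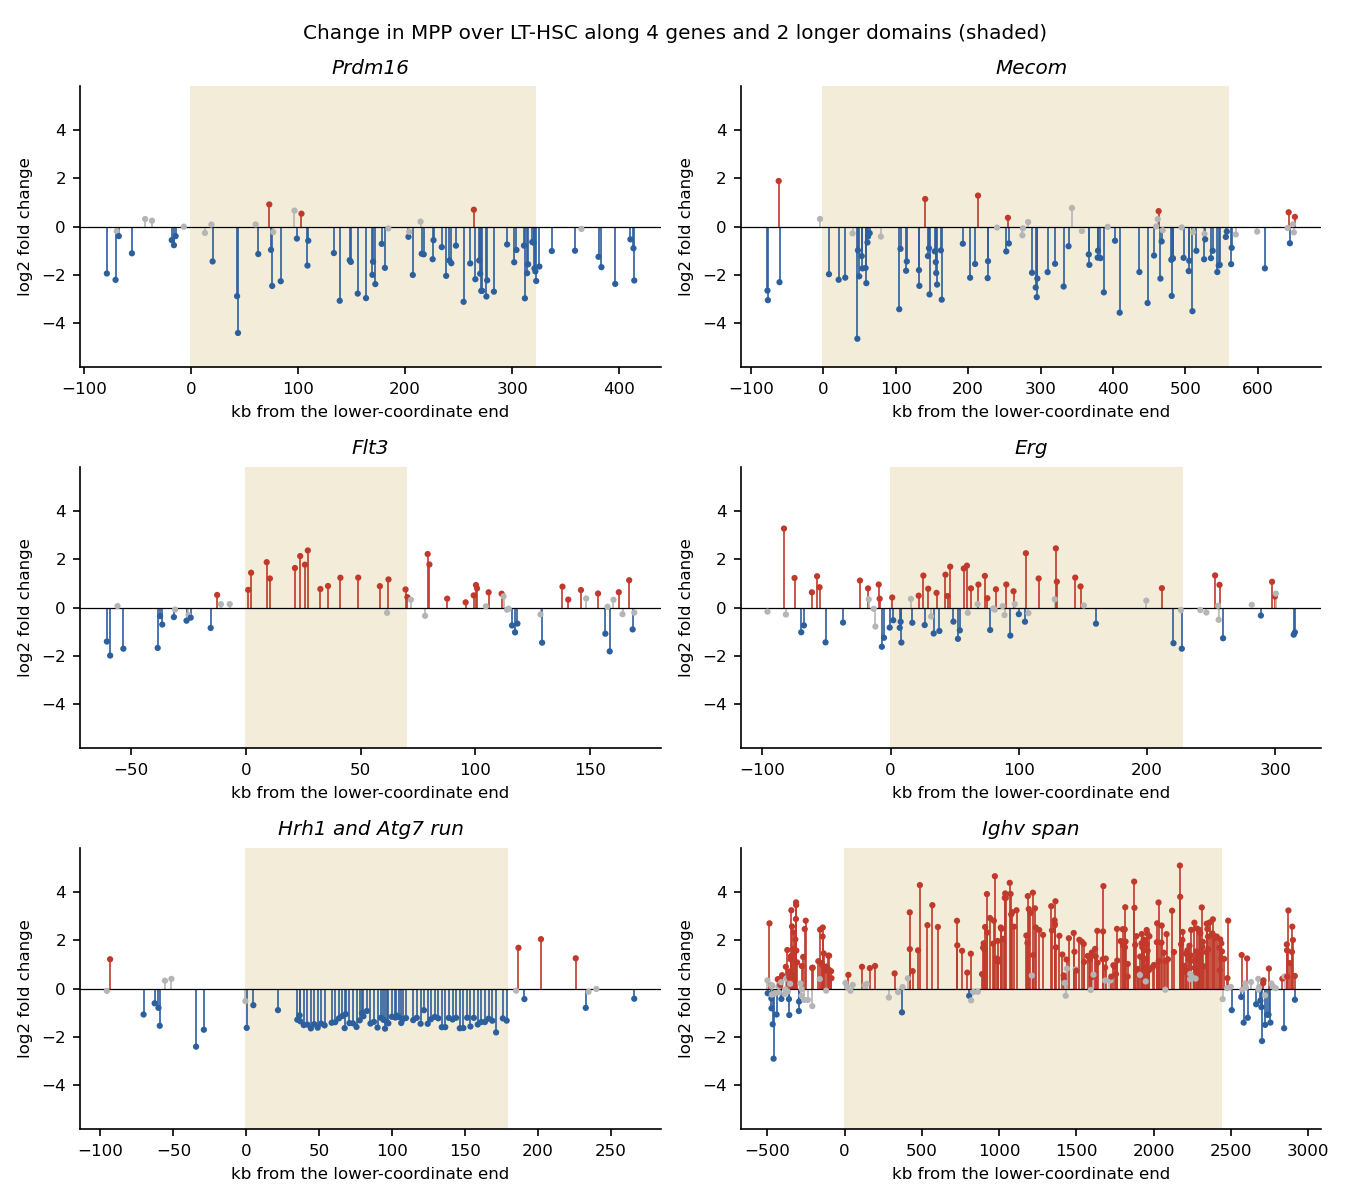
Each stem is a tested region, placed by its distance in kb from the lower-coordinate end of the shaded gene or domain (horizontal axis) and by its log2 fold change of MPP over LT-HSC (vertical axis). Red was called higher, blue lower and grey not called: Prdm16 had 55 lower and 3 higher assigned regions, Flt3 18 higher, the Hrh1 and Atg7 run 67 lower at regular spacing, and the Ighv span 181 higher.

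Promoters that opened and promoters that closed differed in base composition. Of 14417 RefSeq promoters (250 bases before to 50 after the start) that overlapped a tested region, 590 lay on a region called at least 2-fold higher and 1440 on one at least 2-fold lower. Raised promoters held a median of 4 CpG dinucleotides (quartiles 2 and 7) and lowered ones 11 (5 and 19), against 19 (10 and 28) over all. Their median GC content was 50.3%, 57.0% and 60.7%. Motif letters were searched on both strands. GAGGAAGT (PU.1) stood in 10.8% of raised, 2.15% of lowered and 3.66% of all promoters, TGTGGT (RUNX) in 29%, 14% and 14.1%, and TTGCNNAA (C/EBP) in 19.7%, 9.65% and 8.64%. The GATA letters AGATAA stood in 14.2%, 10.8% and 6.6%, TGANTCA (AP-1) in 9.66%, 8.33% and 5.45%, and CACGTG (E-box) in 7.12%, 6.81% and 9.72%. The ETS letters CCGGAAGT stood in 2.88%, 0.972% and 6.78%, CCAAT (NF-Y) in 29.2%, 33.9% and 36.9%, and GGGCGG (SP/KLF) in 21.2%, 43.9% and 60%. PU.1 and ETS letters share the core GGAAGT, and the part of base composition in these shares was not tested. Of the 45 chosen genes, 36 were in the promoter table and 32 had a tested region there, of which 17 were higher and 9 lower. Over all 14417 promoters 35.7% were higher and 30.1% lower.

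The same step without Phf6 was compared through the interaction of population and genotype over all 12 libraries, which asks whether MPP over LT-HSC differs between genotypes. Of 186373 regions tested, 15 (0.00805%) passed, all with a greater log2 fold change in the knockout, and 0 with a smaller one. Without adjustment 14082 regions (7.56%) had a p under 0.05, 6860 of them greater and 7222 smaller, and DESeq2 called 37 greater and 26 smaller. The median half-width of the 95% interval of this difference was 0.56 on the log2 scale. At Gphn, the gephyrin scaffold gene (chr12:78350782-78351185), the WT libraries went from 46.9, 47.1 and 45.7 CPM to 69.2, 68.5 and 62.6 CPM, and the knockout libraries from 40.6, 35.7 and 36.7 CPM to 82.8, 80.1 and 91.9 CPM. The difference between the 2 steps was 0.65 ± 0.09 (adjusted p = 0.00227). At Cntnap5b, a neurexin family gene (chr1:100179987-100180412), WT libraries stayed at 19 to 21.3 CPM in both populations, and knockout libraries rose from 20.8, 17.7 and 17.1 CPM to 28, 29 and 33.5 CPM (difference 0.65 ± 0.12, adjusted p = 0.0435). Without knockout LT-HSC library 2 the same test passed 0 regions (13169 with unadjusted p under 0.05), and without library 1 of WT LT-HSC or library 3 of knockout LT-HSC 2 each. Accessibility summed over 10 regions of Phf6 was 43.4 to 49.4 CPM in all 12 libraries, which does not check the deletion, and Cre-ERT2 was present only in the knockout libraries, so its effect and that of Phf6 cannot be told apart.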

How the data were processed

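The authors deposited raw read counts per region, 1 table for 12 libraries. Per the submitters' processing notes, cutadapt, Bowtie2, MACS2 2.1.1, featureCounts, DESeq2 1.22.1 and the build GRCm38 were used; the sources used here do not state their order, settings or handling of duplicates. Counts do not show reads outside regions, so signal over background is unknown. Its 188262 regions measured 402 to 3503 bp (median 453 bp).

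Regions were placed against 21896 RefSeq protein-coding genes (GRCm38.p6), to the gene overlapped or the nearest within 100 kb, which assigned 172511 (91.6%). Such an assignment by distance is no evidence of control. Start sites were listed for 17491 genes, so gene ends stood in for promoters.

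MPP was tested against LT-HSC in the 6 WT libraries with edgeR 4.0.16 (R 4.3.3): filterByExpr, TMM factors (0.973 to 1.020), 1 mean per group and the 2-sided quasi-likelihood F test, with Benjamini-Hochberg adjustment over all regions. The biological coefficient of variation was 9.48%. CPM and log2 fold changes use these factors, and errors of fold changes are standard errors. No paired analysis entered the main test: deviations of same-numbered LT-HSC and MPP libraries correlated at 0.07, 0.09 and 0.12. Replicates differed by more than counting noise (chi-square per degree of freedom 2.23 to 3.18). On counts simulated from these libraries the test found 27 of 50 regions changed 1.5-fold, 49 of 50 changed 2-fold, and all 50 each at 4-fold and 8-fold, with 8 false calls among 184743 regions. The changed regions there were few, all at or above the median count, and every region was given the same spread. In the data most regions were called, which loosens the cut on unadjusted p, so these rates need not hold for the data.

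Alternatives were DESeq2 1.42.0, limma-voom (limma 3.58.1), RLE, total-count, gene-end TMM and loess scaling, other filters, a 1.5-fold threshold, a replicate block and leaving out each library. The regions named were, per direction, the 12 largest changes above the median level, the 8 genes with most changed regions, the gene end and lowest p at 45 loci, up to 3 genes a list and the 5 longest runs, and up to 4 for the interaction. The 12 largest changes were limited to genes that are not predicted models, at most 1 region a gene, with the groups not overlapping. Other regions were taken by p or level in these data, so groups standing apart at named regions is no separate support. Loci, the 18 lists and the rule were chosen with earlier results of these data known. Some regions that the rule named are not reported here.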

Additional observations from a re-analysis of the deposited data

Results flagged for a closer look

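The step from LT-HSC to MPP differed between genotypes by the interaction test of edgeR at 4 named regions, in each with the greater log2 fold change in the knockout. The difference between the 2 steps was 0.70 ± 0.12 (SE) at a gene end of Sspn, which encodes sarcospan, with an adjusted p of 0.0309. In WT this region went from 12.4, 11.7 and 12.9 CPM to 19.5, 19.3 and 18.6 CPM, and in the knockout from 8.97, 8.46 and 7.62 CPM to 22.3, 19.4 and 21.9 CPM. Camk1d, a calcium-dependent kinase gene, differed by 0.66 ± 0.11 in its gene body (adjusted p = 0.0164), with WT libraries at 33.4 to 39.6 and 42.6 to 48.6 CPM and knockout libraries at 31.7 to 40.1 and 65.4 to 75.2 CPM. The differences at Cntnap5b and Gphn were 0.65 each (adjusted p = 0.0435 and 0.00227). Over the alternatives the highest adjusted p was 0.188 at Sspn, 0.175 at Camk1d, 0.291 at Cntnap5b and 0.0553 at Gphn.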

How the results depend on the processing

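Over the alternatives run, 47.5% (total counts) to 50.4% of calls in WT were higher. Each scales the libraries to a common centre or total (median log2 fold change -0.03 to 0.02), so this range does not bear on an overall shift. Calls ranged from 58103 to 62613 higher and 57841 to 61741 lower when each library was left out. The only counts that moved by over 1.5 times were those against a 1.5-fold change (35754 higher, 38472 lower). At 2-fold or more, leaving out a library gave 32682 to 34427 higher and 33854 to 35184 lower. The numbers do not establish pairs, though each LT-HSC library correlated best with the MPP library of its own number (3 of 3). With the replicate block 65360 regions were higher and 66160 lower.

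Of 222 named regions called, 193 kept their call under all 17 alternatives and 29 lost it under at least 1, mostly the 1.5-fold test. Of the uncalled, 7 were called under at least 1, among them the gene ends of Kit, Myc, Itga2b and Cdkn1c as lower with the loess offset. With the loess offset the gene end of Zfpm1 turned from 0.15 to -0.12 and that of Foxo3 from 0.06 to -0.16; the cause was not tested. In all 18 lists the leading direction was the same under each scaling. It turned for immediate early genes at gene ends alone and for interferon genes at gene ends alone and against a 1.5-fold change.

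The 15 interaction calls were the least stable. Their number was 63 with DESeq2 (37 greater, 26 smaller), 8 with limma-voom (all 8 greater), 32 with the loess offset (26 and 6), 48 with the replicate block (29 and 19), 27 with total counts (24 and 3), 26 with TMM from gene-end regions (9 smaller) and 5 at an adjusted p of 0.01 (5 greater). Without the filter 1 was smaller. Leaving out each library gave 0 to 31 calls (0 to 20 greater, 0 to 13 smaller). By library left out, the count moved to 0 for knockout LT-HSC 2, 2 for knockout LT-HSC 3 and for WT LT-HSC 1, 5 for knockout MPP 3, 7 for WT LT-HSC 2, 9 for knockout MPP 2 and 31 for WT LT-HSC 3. Depth limits regions of low level, and 3 libraries a group limit small differences.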
